A study of Mus musculus with 4 samples.

Results

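The translation initiation and elongation factors are the proteins that bring an mRNA, the ribosome and the tRNAs together. Their genes were read in Beta-TC-6 cells, a mouse line of insulin-producing cells from an insulinoma of transgenic mice. Members were the genes whose probe set carried 1 platform symbol starting with Eif1 to Eif6, with Eef1 or Eef2, or equal to Etf1. The Eif2ak kinases, which act on eIF2, and pseudogenes named with -ps were left out. The rule gave 60 of 22180 genes, on 65 probe sets. Where a gene had several, the probe set with the highest mean of its 4 arrays was read, which applied to Eef1a1, Eif3d, Eif4a1 and Eif4a2. RefSeq lists 59 of the 60 as protein coding. The exception is Eif2c5, a long non-coding RNA with an old argonaute symbol that is no translation factor. Another 9 protein-coding genes fit the names without a probe set of their own and are not analysed here. They include Eif1, Eif2s1 and Eif2s3x (the alpha and gamma subunits of eIF2), Eif3g, Eif3j2, Eif4ebp3 and Eif4g1.

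The study knocked down NF90, a double-stranded RNA-binding protein, to ask how whole-genome expression depends on it. The siNF90 group (2 arrays) received a mixture of siRNA duplexes against NF90 and the siNTC group (2 arrays) a negative-control siRNA, both with the same lipid reagent and in medium with 25 mM glucose. RNA was hybridised to Affymetrix Mouse Gene 2.1 ST arrays, which probe whole transcripts. The labels used here give no time after transfection and do not say whether arrays came from separate cultures. P-values therefore cover array-to-array spread alone, and that spread may be technical.

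Initiation begins when eIF2 delivers the initiator tRNA to the small ribosomal subunit, which carries eIF1, eIF1A and eIF3. The eIF4F complex, made of the cap-binding eIF4E, the scaffold eIF4G and the helicase eIF4A, recruits the mRNA. After start-codon recognition eIF5 and eIF5B lead to joining of the large subunit. In elongation eEF1A delivers each aminoacyl-tRNA, the eEF1B complex recharges eEF1A with GTP, and eEF2 moves the ribosome along the mRNA. In beta cells this machinery carries a heavy load of proinsulin synthesis, and glucose acts on it through eIF2 and eIF2B.

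Many mRNAs of the translation machinery start with a C followed by a run of pyrimidines, the 5′ terminal oligopyrimidine form that growth signals act on through mTORC1. The RefSeq starts of 4 members are shown for that reason: Eif3f, whose start has this form, the elongation factors Eef1a1 and Eef2, and Eif4e2, which had the smallest p of all members and has 3 starts. Each window holds 10 bases before the start and 20 from it, 5′ to 3′ on the gene's strand. Capitals mark the first transcribed base, and, where that base is a C or T, also the C or T bases that follow it without a break.
Eif3f, GRCm38.p6 chr7:108934405-108934434, plus strand: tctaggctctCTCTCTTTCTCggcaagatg
Eef1a1, GRCm38.p6 chr9:78481705-78481734, minus strand: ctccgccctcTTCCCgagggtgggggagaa
Eef2, GRCm38.p6 chr10:81176621-81176650, plus strand: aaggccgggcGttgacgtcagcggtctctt
Eif4e2, GRCm38.p6 chr1:87213901-87213930, plus strand: cgcctcgccaGccaaccggaagtagccggg
Eif4e2, GRCm38.p6 chr1:87213904-87213933, plus strand: ctcgccagccAaccggaagtagccgggccc
Eif4e2, GRCm38.p6 chr1:87213929-87213958, plus strand: ggcccttagcGatgggacccggtagagcgg
RefSeq starts were available for 45 of the 60 members, 59 starts in all. A C at the start with at least 4 more pyrimidines was read in 2 of them (3.39%), those of Eif3f and Eif2c5, against 823 of 32851 starts of all genes (2.51%). These are annotated starts, not starts measured in these cells, and the absence of the letters in a window says nothing about how the mRNA is controlled.

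Most translation factor genes lay close together in siNF90 and siNTC cells. The median log2 difference (siNF90 minus siNTC) was 0.05 over the 60 members and 0.02 over all genes, and the median absolute difference was 0.10, against 0.13 over all genes. Differences ranged from -0.36 (Eif4enif1, which shuttles eIF4E) to 0.64 (Eif4a3, a helicase of the exon junction complex). In 30 members (50%) the difference was under 0.1 in size, against 38.7% of all genes, and in 7 (11.7%) it was above 0.3, against 16.4%. The members had higher mean log2 values, 5.69 to 5.78 per array against 2.86 to 2.89 over all genes. None of these comparisons is matched for level, and among the members differences were smaller at higher levels. No member passed limma's test with Benjamini-Hochberg adjustment over all genes at 0.05 (smallest adjusted p = 0.357), and 0% of all genes did. With a variance prior that follows the gene's level, 0.455% of all genes passed and again no member did (smallest adjusted p = 0.111).

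At an unadjusted p under 0.05 there were 4 members, Eif4e2, Eif6, Eif1a and Eef2k, all higher in siNF90. That is 6.67% of the members, against 10.3% of all genes. Higher genes made up 6.67% of members and 5.87% of all genes, while no member and 4.41% of all genes were lower. Only Eif4e2 of these 4 kept an unadjusted p under 0.05 without any one of the arrays. The count was 1 without the first siNTC array and 2 without the second siNF90 array. The 2 siNF90 arrays were both above the 2 siNTC arrays in 19 members (31.7%), where 21.9% of all genes did, and below both in 8 (13.3%), where 17.9% of all genes did. In 33 members the groups overlapped. With 2 arrays in each group the smallest two-sided p that an exact permutation test allows is 0.33, so single genes were not tested that way.

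**Figure D1:**
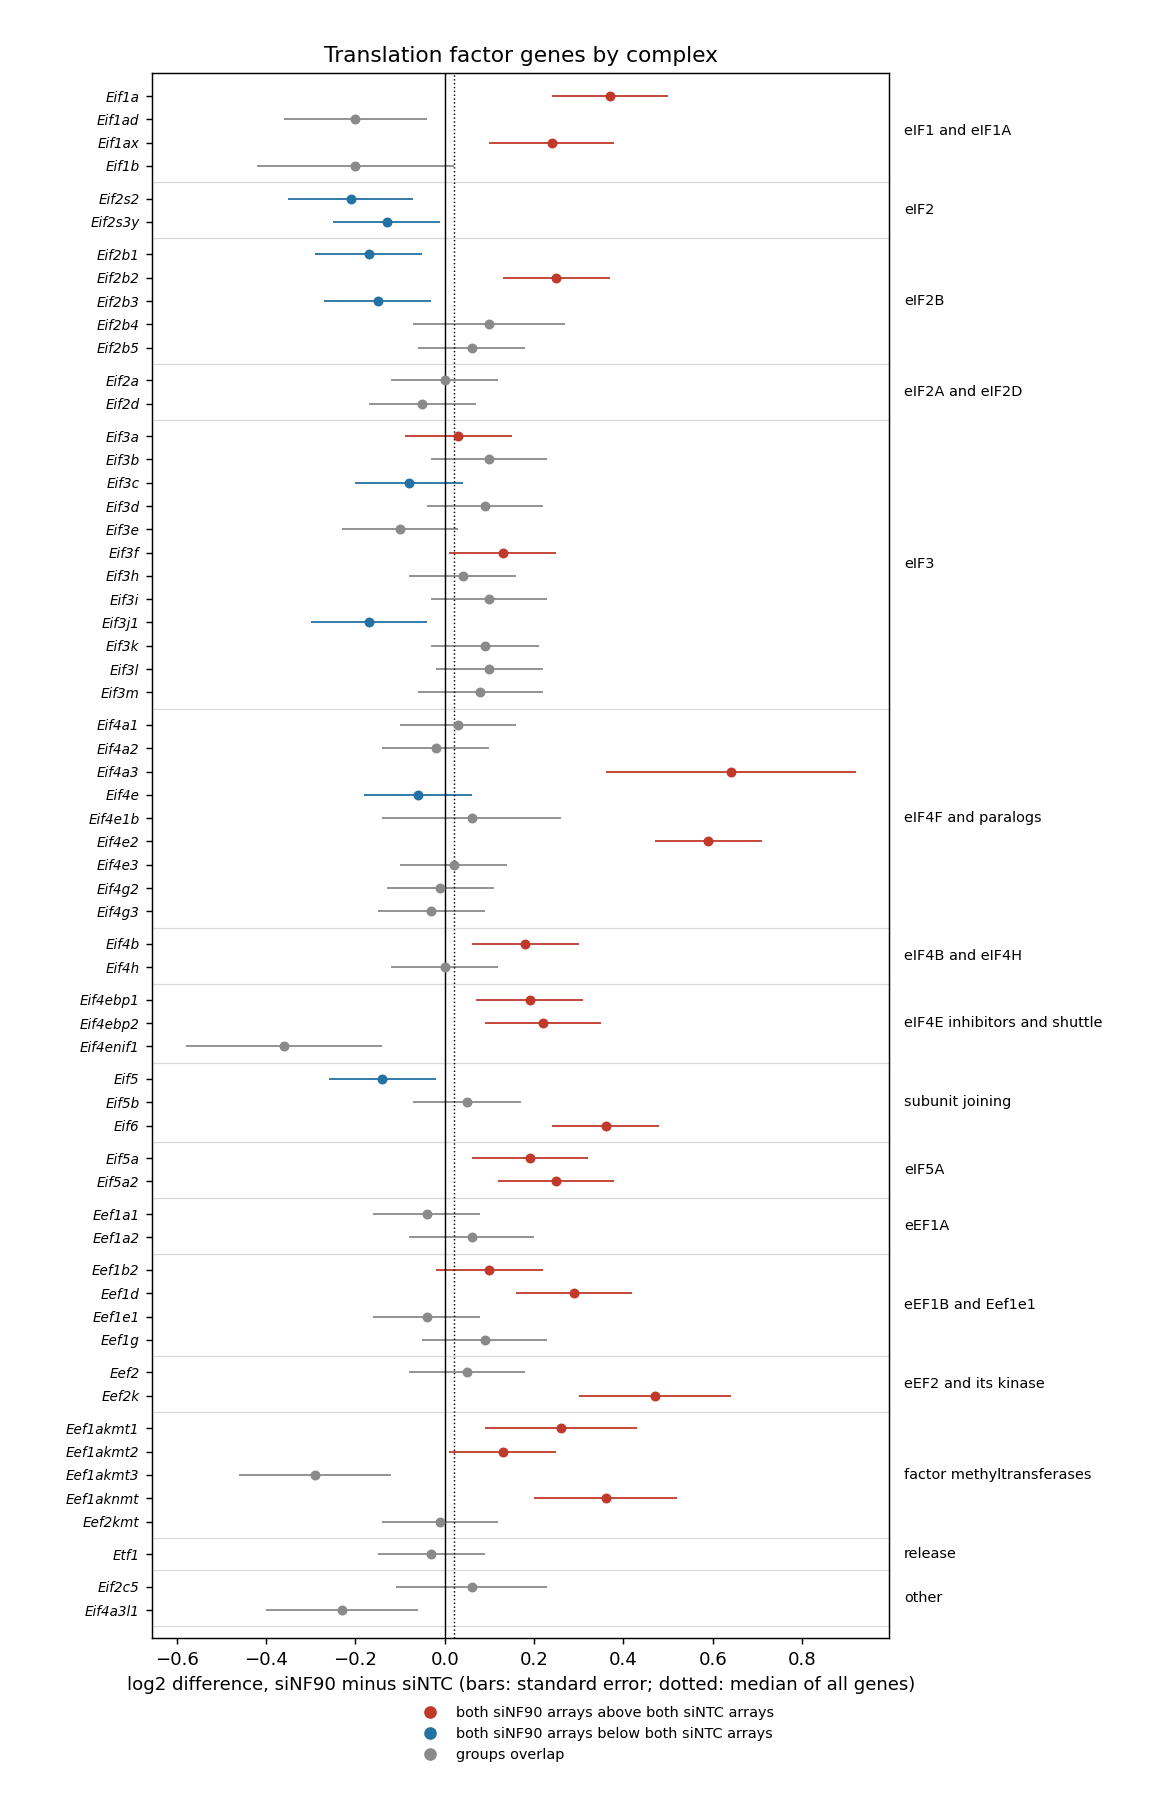
Log2 difference between siNF90 and siNTC (x axis) for each of the 60 genes, grouped by complex from top to bottom, with the standard error of the limma fit as bars and the median of all genes, 0.02, as a dotted line. Most genes lie near 0, with Eif4a3 at 0.64 and Eif4e2 at 0.59 farthest to the right and Eif4enif1 at -0.36 farthest to the left.

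Among the 4 cap-binding proteins measured, Eif4e2 had the largest difference. Eif4e2 (probe set 17215222) encodes 4EHP, a cap-binding protein that does not bind eIF4G and is known for repressing the mRNAs it binds. It read 4.80 and 4.69 on the siNF90 arrays, against 4.15 and 4.17 on the siNTC arrays (log2 values). Both siNF90 arrays were higher by more than the gap between arrays of either group. The difference was 0.59 ± 0.12 (log2, SE; 1.5-fold, 95% interval 0.29 to 0.88), with unadjusted p = 0.00284 and adjusted p = 0.357 in limma. It stayed between 0.53 and 0.64 without any one array. Eif4e (probe set 17403138), the cap-binding subunit of eIF4F, read 7.59 and 7.57 in siNF90, against 7.66 and 7.61 in siNTC, and differed by -0.06 ± 0.12 (95% interval -0.34 to 0.23). Eif4e3, an atypical cap-binding relative, read 4.62 and 4.57 in siNF90 and 4.62 and 4.54 in siNTC. Eif4e1b, known as an oocyte form, read 1.03 and 1.31 in siNF90 and 1.35 and 0.87 in siNTC, below the median gene value of 1.85. The differences of these cap-binding genes from each other were not tested.

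The helicase genes of eIF4F and the scaffold paralogs Eif4g3 and Eif4g2 had nearly equal values in the groups, while the main scaffold gene, Eif4g1, is not analysed here. Eif4a1, the main helicase, read 10.25 and 10.13 in siNF90, against 10.24 and 10.09 in siNTC, a difference of 0.03 ± 0.13. Its paralog Eif4a2 read 7.01 and 6.98 in siNF90, against 6.98 and 7.04 in siNTC. The 2 other probe sets of Eif4a2, with lower values, had differences of -0.25 and -0.26, with overlapping groups. Eif4g3, a scaffold paralog, read 6.59 and 6.62 in siNF90, against 6.61 and 6.66 in siNTC. Eif4g2 (DAP5), which lacks the site for eIF4E, read 9.07 and 9.03 in siNF90, against 8.99 and 9.13 in siNTC (-0.01 ± 0.12).

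Eif4a3, the core helicase of the exon junction complex, had the largest difference of all members and the largest standard error. It read 3.49 and 3.12 in siNF90, against 2.27 and 3.06 in siNTC, a difference of 0.64 ± 0.28 (unadjusted p = 0.0618, adjusted p = 0.508 in limma). The first siNTC array stood well below the other 3. Without it the difference was 0.25, and without the second siNTC array it was 1.04. Eif4a3l1, a sequence close to Eif4a3, read 4.55 and 4.85 in siNF90, against 5.07 and 4.79 in siNTC (-0.23 ± 0.17, and -0.08 without the first siNF90 array), and probes may share signal between such copies, so both are uncertain.

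Over the 9 genes of eIF4F and its paralogs the median difference was 0.02, with 5 higher and 4 lower. It turned to -0.01 with arrays centred on their medians, and ran from -0.02 (without the first siNF90 array) to 0.06 (without the first siNTC array). The helicase aids differed in size. Eif4b, a cofactor that mTORC1 signalling phosphorylates, read 7.88 and 7.89 in siNF90, against 7.76 and 7.65 in siNTC (0.18 ± 0.12), without overlap. Eif4h, a related cofactor, read 8.05 and 8.07 in siNF90 and 8.04 and 8.08 in siNTC.

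The inhibitors of eIF4E lay higher in siNF90 on every array, by amounts that did not pass. Of all genes, 21.9% also lay higher on both siNF90 arrays than on both siNTC arrays. Eif4ebp1 and Eif4ebp2 encode 4E-BPs, which block eIF4G from eIF4E until mTORC1 phosphorylates them. Eif4ebp1 read 5.42 and 5.44 in siNF90, against 5.24 and 5.25 in siNTC (0.19 ± 0.12). Eif4ebp2 read 4.94 and 4.84 in siNF90, against 4.58 and 4.77 in siNTC (0.22 ± 0.13). Arrays of Eif4ebp1 nearly coincided within each group, while the siNTC arrays of Eif4ebp2 lay further apart, and its difference was 0.12 without the first of them. Eif4enif1 (4E-T), which brings eIF4E to the nucleus and to processing bodies, read 5.34 and 4.76 in siNF90, against 5.27 and 5.54 in siNTC. The second siNF90 array was the low one. The difference of -0.36 ± 0.22 was -0.07 without that array and -0.65 without the first.

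**Figure D2:**
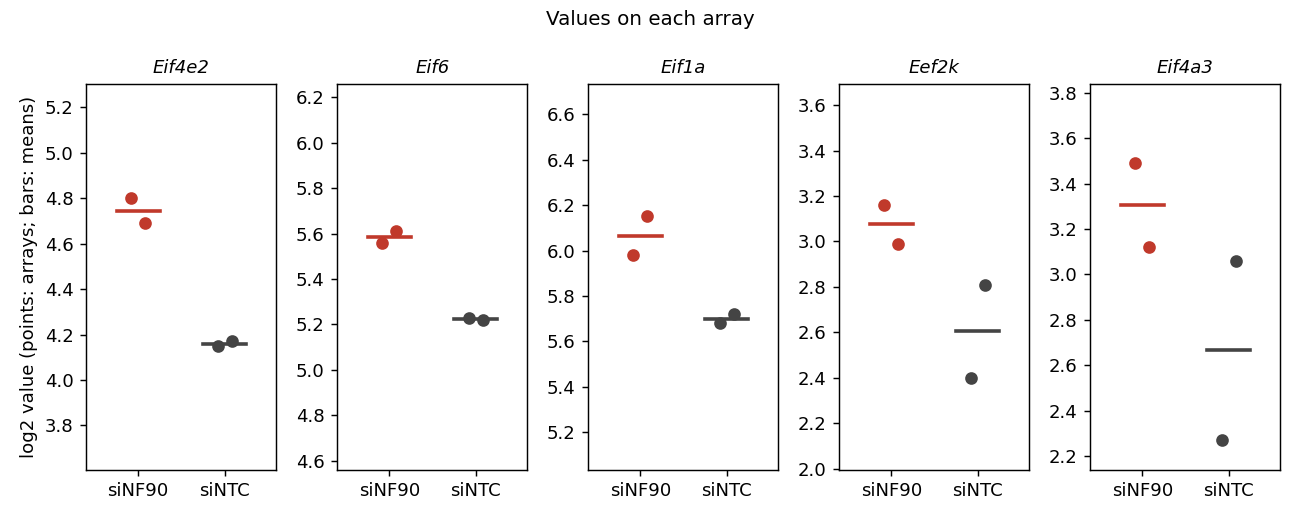
Log2 value on each array (y axis, equal span in every panel) for the 4 members at an unadjusted p under 0.05 and for Eif4a3, with the siNF90 arrays left of the siNTC arrays and a line at each group mean. Eif4e2, Eif6 and Eif1a separate the groups, which choosing them by p on these same arrays favours. The siNTC arrays of Eef2k and Eif4a3 lie 0.41 and 0.79 apart.

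The start-codon factors differed in direction, and none passed the adjusted test. Eif1a, on an autosome, and Eif1ax, on the X chromosome, both encode eIF1A, which keeps the scanning ribosome competent with eIF1. Eif1a (probe set 17350356) read 5.98 and 6.15 in siNF90, against 5.68 and 5.72 in siNTC. The difference was 0.37 ± 0.13 (1.29-fold, 95% interval 0.06 to 0.67), with unadjusted p = 0.0277 and adjusted p = 0.440 in limma, and it ran from 0.28 to 0.45 without any one array. Eif1ax read 6.46 and 6.46 in siNF90, against 6.08 and 6.36 in siNTC (0.24 ± 0.14, and 0.10 without the first siNTC array). Neither pair of groups overlapped. Eif1b, the paralog of eIF1, read 5.58 and 4.96 in siNF90, against 5.38 and 5.55 in siNTC (-0.20 ± 0.22), and turned to 0.12 without the second siNF90 array. Eif1ad, whose protein shares the eIF1A domain, read 6.14 and 5.77 in siNF90, against 6.19 and 6.12 in siNTC, so its groups overlapped. Its difference of -0.20 was -0.39 with the first siNF90 array left out and -0.02 with the second left out. The second siNF90 array was the low one in Eif1b, Eif1ad and Eif4enif1. Over Eif1a, Eif1ax, Eif1b and Eif1ad the median was 0.02, with Eif1ad counted although it only shares a domain with eIF1A. This median ran from -0.07 (without the first siNF90 array) to 0.18 (without the second). Apart from Eif1ad, Eif1a and Eif1ax were higher and Eif1b was lower.

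The 2 measured genes of eIF2 were lower in siNF90, without overlap and without passing. Of all genes, 17.9% were also lower without overlap. Eif2s2, the beta subunit, read 3.79 and 3.90 in siNF90, against 4.19 and 3.91 in siNTC. Its difference was -0.21 ± 0.14 (95% interval -0.56 to 0.15), and the groups were 0.01 apart at their nearest. It was -0.07 without the first siNTC array and -0.35 without the second. Eif2s3y, a Y-linked copy of the gamma subunit, read 0.68 and 0.75 in siNF90, against 0.86 and 0.83 in siNTC. By mean level Eif2s3y ranked at 4.11% from the bottom of all genes, and the values come with no measure of background. The reading of eIF2 therefore rests mainly on Eif2s2, as Eif2s1 and Eif2s3x are not analysed here.

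The eIF2B subunits, which recharge eIF2 with GTP and are blocked when eIF2 is phosphorylated, differed in both directions. Eif2b2, the beta subunit, read 4.52 and 4.52 in siNF90, against 4.27 and 4.27 in siNTC (0.25 ± 0.12). Eif2b1, the alpha subunit, read 6.11 and 6.03 in siNF90, against 6.25 and 6.22 in siNTC (-0.17 ± 0.12). The gamma subunit Eif2b3 read 4.32 and 4.20 in siNF90, against 4.46 and 4.36 in siNTC (-0.15 ± 0.12). Both siNF90 arrays were above both siNTC arrays for Eif2b2 and below them for Eif2b1 and Eif2b3. Eif2b4 and Eif2b5, the delta subunit and the catalytic epsilon subunit, overlapped between groups, at 0.10 and 0.06. The median of 0.06 over the 5 subunits became -0.10 without the first siNTC array and -0.01 without the second siNF90 array. Eif2a and Eif2d, which can bring tRNA to the ribosome without eIF2, differed by 0 and -0.05. Eif2d read 4.02 and 4.14 in siNF90, against 4.10 and 4.15 in siNTC.

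The eIF3 complex, the largest initiation factor and the platform on the small subunit, differed little. Over its 12 measured genes the median was 0.09, in a range of -0.17 to 0.13. Of these genes 9 were higher (75%, where 53.1% of all genes were) and 3 lower, none at an unadjusted p under 0.05. The median was 0.02 without the first siNF90 array and 0.05 to 0.07 without another. In 8 of the 12 the difference was under 0.1. Eif3f read 6.08 and 6.07 in siNF90, against 6.02 and 5.88 in siNTC. Eif3a, the scaffold, read 9.15 and 9.15 in siNF90, against 9.14 and 9.11 in siNTC. In these 2 the siNF90 arrays were above both siNTC arrays, by 0.13 and 0.03 on average. On the lower side, Eif3j1, a loosely bound subunit, read 3.11 and 3.26 in siNF90, against 3.40 and 3.30 in siNTC. The other subunit without overlap was Eif3c, at -0.08. A second probe set of Eif3d had low values and a difference of -0.30, against 0.09 for the one used.

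Around subunit joining, Eif6 was higher in siNF90. Eif6 (probe set 17393357) encodes an anti-association factor that binds the large subunit, keeps it from joining early and acts in its assembly. It read 5.56 and 5.61 in siNF90, against 5.23 and 5.22 in siNTC. The groups lay far apart beside gaps of 0.05 and 0.01 within them. The difference was 0.36 ± 0.12 (1.28-fold, 95% interval 0.08 to 0.64), with unadjusted p = 0.0214 and adjusted p = 0.430 in limma, and 0.34 to 0.39 without any one array. Eif5, which triggers GTP hydrolysis on eIF2, read 8.24 and 8.23 in siNF90, against 8.36 and 8.39 in siNTC (-0.14 ± 0.12). Its groups did not overlap, and with the variance trend its unadjusted p was 0.0349. Eif5b, the joining GTPase, read 6.44 and 6.57 in siNF90, against 6.44 and 6.47 in siNTC.

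Both genes of eIF5A, the hypusine-bearing factor that helps the ribosome through difficult peptide bonds, were higher in siNF90 without overlap. So were 21.9% of all genes. Eif5a read 5.39 and 5.18 in siNF90, against 5.08 and 5.11 in siNTC (0.19 ± 0.13). Eif5a2, a paralog with narrower expression, read 5.48 and 5.64 in siNF90, against 5.23 and 5.40 in siNTC (0.25 ± 0.13). Neither had an unadjusted p under 0.05. Without any one array Eif5a ran from 0.09 to 0.30 and Eif5a2 from 0.16 to 0.33, lowest without the first siNF90 array for Eif5a and without the first siNTC array for Eif5a2. The hypusine enzymes Dhps and Dohh differed by -0.11 and -0.08.

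**Figure D3:**
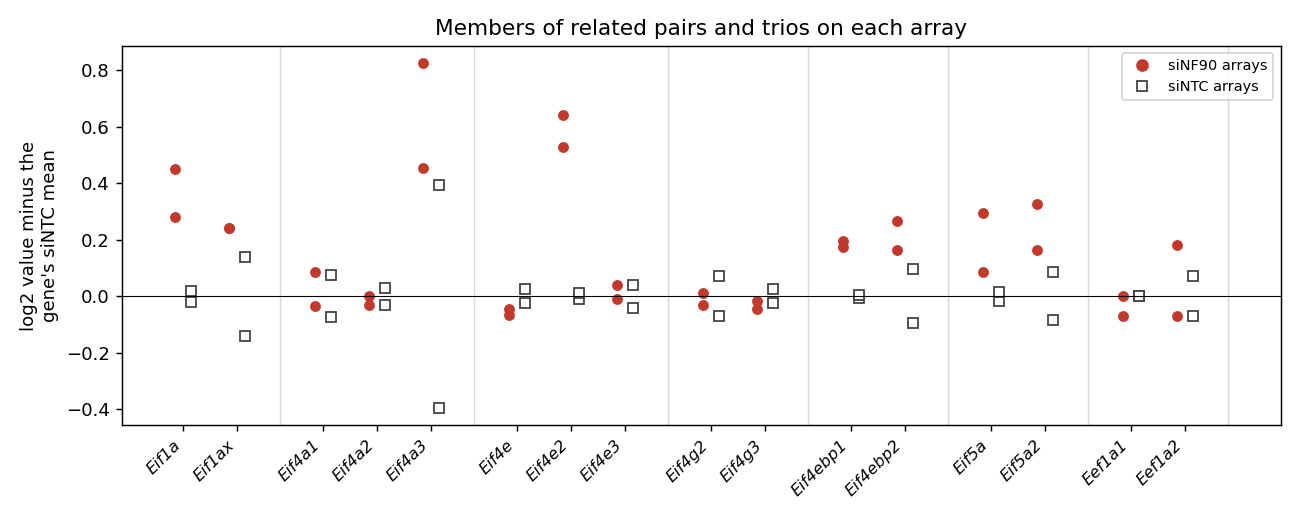
Log2 value on each array minus that gene's siNTC mean (y axis) for related genes side by side, with siNF90 arrays as filled circles left of the siNTC arrays as open squares. Eif4e2 separates the groups by 0.59 whereas Eif4e and Eif4e3 differ by -0.06 and 0.02, and Eef1a1 and Eef1a2 overlap.

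The factors of elongation itself had nearly equal values. Eef1a1, which delivers aminoacyl-tRNA, read 10.67 and 10.60 in siNF90, against 10.67 and 10.67 in siNTC (-0.04 ± 0.12, 95% interval -0.32 to 0.25). Its paralog Eef1a2, the form of muscle and neurons, read 5.99 and 5.74 in siNF90, against 5.74 and 5.88 in siNTC. Over these 2 genes the median was 0.01, and it ran from -0.07 (without the first siNF90 array) to 0.09 (without the second). Eef2, the translocase, read 10.04 and 9.88 in siNF90, against 9.95 and 9.88 in siNTC (0.05 ± 0.13, 95% interval -0.26 to 0.35). In Eef1a1, Eef1a2 and Eef2 the groups overlapped. These intervals still allow differences of about 0.3.

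The exchange complex eEF1B had 1 larger difference, in Eef1d, the delta subunit. Eef1d read 5.82 and 5.59 in siNF90, against 5.39 and 5.45 in siNTC (0.29 ± 0.13), without overlap, and ran from 0.17 to 0.40 without any one array. Eef1b2, the exchange factor subunit, differed by 0.10 without overlap, and Eef1g, the gamma subunit, by 0.09 with overlap. Eef1e1, a scaffold of the tRNA synthetase complex rather than of eEF1B, differed by -0.04.

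Eef2k encodes the kinase that phosphorylates eEF2 and slows elongation when nutrients are short. It (probe set 17482560) read 3.16 and 2.99 in siNF90, against 2.40 and 2.81 in siNTC. Both siNF90 arrays were the higher ones, but the siNTC arrays were 0.41 apart. The difference was 0.47 ± 0.17 (1.39-fold, 95% interval 0.05 to 0.89), with unadjusted p = 0.0352 and adjusted p = 0.456 in limma. It was 0.27 without the first siNTC array and 0.68 without the second.

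The methyltransferases of eEF1A and eEF2 went in both directions. Eef1aknmt, which methylates eEF1A, read 2.79 and 2.55 in siNF90, against 2.16 and 2.47 in siNTC (0.36 ± 0.16). Without the first siNTC array this was 0.20, and without the first siNF90 array 0.24. Eef1akmt1, a lysine methyltransferase of eEF1A, read 3.60 and 4.03 in siNF90, against 3.55 and 3.56 in siNTC, and its difference of 0.26 was 0.05 without the second siNF90 array. Eef1akmt2 differed by 0.13, also without overlap. Eef1akmt3, another lysine methyltransferase of eEF1A, read 1.53 and 1.70 in siNF90, against 2.11 and 1.69 in siNTC, around the median gene value. Its difference of -0.29 was -0.08 without the first siNTC array and -0.50 without the second. Eef2kmt differed by -0.01. Etf1, the release factor eRF1 that recognises all stop codons, read 7.73 and 7.77 in siNF90, against 7.73 and 7.82 in siNTC (-0.03 ± 0.12).

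Differences went with level on the array. In the 30 members with lower mean values (0.78 to 5.88) the median absolute difference was 0.20 and the median gap between arrays of a group was 0.15. In the 30 with higher values (5.93 to 10.65) they were 0.08 and 0.06. All 4 members at an unadjusted p under 0.05 belonged to the lower set. A difference between the groups larger than the gaps within both was found in 19 members (31.7%), where 28.8% of all genes had one.

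**Figure D4:**
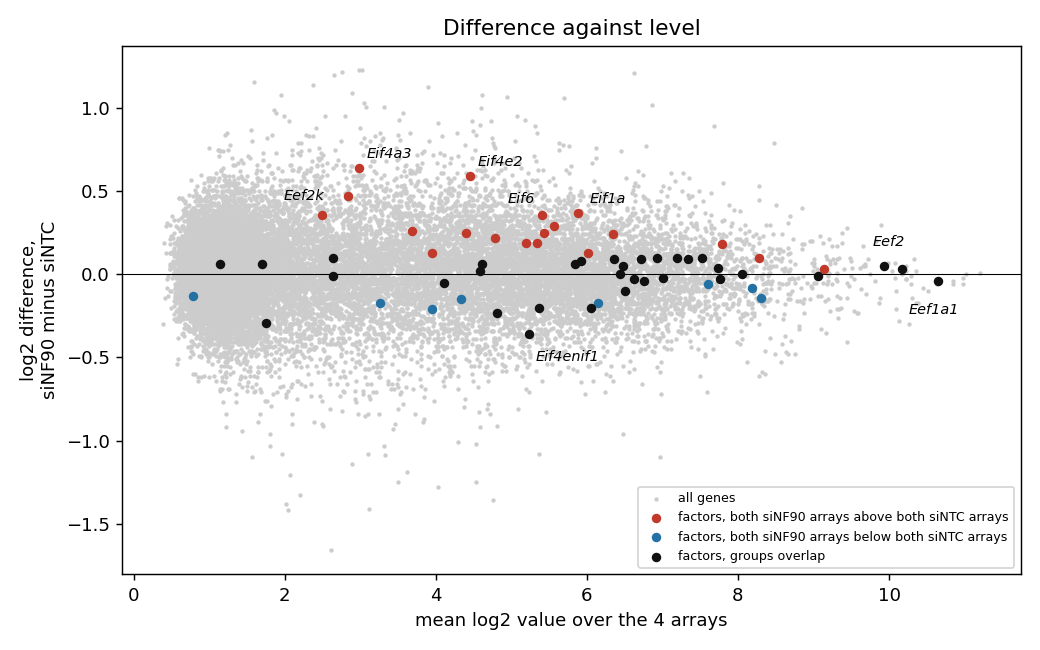
Log2 difference between siNF90 and siNTC (y axis) against the mean log2 value over the 4 arrays (x axis), with all 22180 genes in light grey and the 60 factors in colour by whether the groups overlap. Factors with high values, such as Eef1a1 and Eef2, lie near 0, and the 7 with a difference above 0.3 in size are among the 30 factors with lower values, though above the median of all genes, 1.85.

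Beyond the naming rule, 56 genes of translation were listed: kinases, phosphatases, enzymes and partners that act with the factors, genes of recycling and release, and the separate mitochondrial and selenocysteine factors. Of these 51 were measured, with 28 higher (54.9%, where 53.1% of all genes were), 23 lower and a median of 0.04. None passed the test over all genes (smallest adjusted p = 0.357). At an unadjusted p under 0.05 there were 3 higher (5.88%, where 5.87% of all genes were) and 5 lower (9.80%, where 4.41% of all genes were). The list was chosen with earlier results of these data known, so these shares are description alone. On the lower side, Ppp1ca, a catalytic subunit of the phosphatase that removes phosphate from eIF2, read 7.99 and 7.96 in siNF90, against 8.68 and 8.49 in siNTC (-0.61 ± 0.13). Abce1, which splits ribosomes after termination, read 8.64 and 8.64 in siNF90, against 9.0 and 8.93 in siNTC (-0.33 ± 0.12). With the variance trend these 2 were the ones of the list that passed over all genes, and both fell, Ppp1ca at adjusted p = 0.0153 and Abce1 at 0.046 (limma).

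Mknk1, a kinase of eIF4E, read 4.18 and 4.10 in siNF90, against 4.61 and 4.55 in siNTC. Gspt2, a partner of the release factor, read 2.50 and 2.44 in siNF90, against 2.88 and 2.90 in siNTC. Eif2ak2 (PKR), the eIF2 kinase that double-stranded RNA activates, read 5.30 and 5.42 in siNF90, against 5.69 and 5.69 in siNTC (-0.33 ± 0.12, unadjusted p = 0.034). In all 3 genes both siNF90 arrays were below both siNTC arrays, which also held for 17.9% of all genes. These 3 were named for an unadjusted p under 0.05 on the same arrays, so the separation is no further support. Of the other eIF2 kinases, Eif2ak3 (PERK), prominent in beta cells, differed by 0.28, Eif2ak4 (GCN2) by -0.29 and Eif2ak1 by 0.07.

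On the higher side, Dhx29, a helicase for scanning through structured leaders, read 5.16 and 5.23 in siNF90, against 4.72 and 4.57 in siNTC (0.55 ± 0.12). Tpt1, an abundant growth-linked protein, read 6.49 and 6.71 in siNF90, against 6.13 and 6.15 in siNTC. Mcts2, a copy of the reinitiation factor Mcts1, read 5.25 and 5.39 in siNF90, against 4.99 and 5.03 in siNTC. The groups of these 3, named by the same p, did not overlap. Of all genes, 21.9% also had both siNF90 arrays above both siNTC arrays. Among mTORC1 and S6 kinase genes 6 of 8 were higher (75%, where 53.1% of all genes were), with a median of 0.16. None had an unadjusted p under 0.05. Tsc1 had the largest difference, at 0.33, and the 2 lower genes were Rheb at -0.11 and Rps6kb2 at -0.27. The list was not split by whether a gene acts for or against mTORC1, so the count gives no direction for the pathway. Among the factors of mitochondrial translation 2 of 8 were higher (25%), with a median of -0.05 and none at an unadjusted p under 0.05.

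The cells carried beta cell markers in both groups. Of 10 markers 9 were measured, at 3.65 to 10.58, and their summed log2 values were 64.99 to 65.33 in siNF90 and 65.46 to 65.80 in siNTC. The sum holds differences of both signs, with 4 markers higher and 5 lower. Slc2a2 (GLUT2) was at 4.78 and 4.86 in siNF90, against 6.0 and 5.80 in siNTC (-1.08 ± 0.13). Its adjusted p in limma was 0.342, and 0.0153 with the variance trend. The transcription factors Nkx6-1 and Mafa differed by 0.45 and 0.38. Markers of other islet cells, 4 of 5 measured, summed to 21.92 to 22.08 in siNF90 and 21.81 to 22.01 in siNTC, with Gcg (glucagon) above 8 on every array. The 6 acinar and duct markers lay between 0.66 and 1.72. The 7 markers of stroma, endothelium and blood summed to 11.74 to 11.91 in siNF90 and 10.82 to 11.09 in siNTC, with 3 higher and 4 lower. Cd68 was at 4.44 and 4.48 in siNF90, against 3.32 and 3.35 in siNTC (1.13 ± 0.12). Its adjusted p in limma was 0.342, and 0.0217 with the variance trend. The other 6 of these markers differed by between -0.37 (Cdh5) and 0.29 (Col1a1). The part of such shifts in the values above was not tested. In a population of cells, a change in RNA per cell cannot be told apart from a change in the mix of cells.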

How the data were processed

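Biotin-labelled DNA made from 250 ng of total RNA was hybridised to 4 Affymetrix Mouse Gene 2.1 ST arrays, 2 per group, per the labels' protocols. The authors deposited 1 table of log2 values for 41345 probe sets, which the submitters' processing notes link to Transcriptome Analysis Console. The sources used here name neither the log base nor the steps of background correction, normalization and summarization. Base 2 was taken because each array holds 5 to 10 values over 11.09, more than a natural logarithm of any scanner reading could reach. The unnamed processing steps could also change the range, so base 2 remains an assumption on which the fold values rest. Array medians were 1.65 to 1.68. Precision is limited by the number of arrays.

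Probe sets with 1 platform symbol (23521) were used, and the highest mean was kept per gene. The table of 22180 genes was fitted with limma 3.58.1 in R 4.3.3 (lmFit and eBayes without a trend, siNF90 minus siNTC, no filter), with two-sided p-values and Benjamini-Hochberg adjustment over all genes. Residual degrees of freedom were 2, with 3.92 from the prior. The fit was checked on simulated data with spread drawn from its own prior and not tied to level. That check does not bear on how spread behaves in these arrays. Groups came from the sample titles. How far NF90 was depleted is not reported here, so arrays are called by their labels. Starts came from RefSeq (GRCm38.p6), and no protein sequences were used here. Members and lists were chosen with earlier results of these data known. Values on every array are given for members at an unadjusted p under 0.05, the member of each complex with the largest difference, paralogs and listed main factors, and other members were named so that each complex is accounted for. Alternatives were a trend or robust prior, the replicate number as a block, median centring, quantile normalization, averaging of probe sets per gene, a minimum level, and leaving out each array.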

Additional observations from a re-analysis of the deposited data

How the results depend on the processing

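The count of genes past the adjusted threshold was 0 in every setting run except the variance trend, which gave 101 genes, no translation factor among them. Translation factors at an unadjusted p under 0.05 in limma numbered 4, against 8 with the trend, 3 with the replicate block and 1 to 6 with 1 array left out. Under the block, Eef2k was the one lost (limma, unadjusted p = 0.0739). The 8 were Eif1a, Eif4a3, Eif4e2, Eif4b, Eif6, Eef1d and Eef2k, all higher, and Eif5, lower. They made up 13.3% of the members, against 12.2% of all genes. The median difference of 0.05 was 0.03 with arrays centred on their medians and 0.02 to 0.04 with 1 array left out. Of the members, 39 never took the opposite sign in the settings run, 19 did and 2 (Eif2a and Eif4h) had a difference of 0. None of the 19 differed by more than 0.20. Among the 39, Eef1a1, Eif3i and Eef1e1 came to 0.0 with 1 of the siNF90 arrays left out. The replicate numbers are not stated to pair arrays, and same-numbered arrays did not deviate together (r = -0.02 across genes). Each fit without 1 array rests on a lone array in that group, assumed to vary like the other group. The cause of these shifts was not tested. The table has no measure of signal over background, so low values cannot be called detected or undetected.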
